A study of Mus musculus with 12 samples.

Results

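Platelets are small anucleate cells shed by megakaryocytes, the large polyploid cells of the bone marrow that sit against sinusoidal vessels. The 9 genes described here are transcribed in megakaryocytes and passed on to platelets as RNA. They were chosen by name, as mouse gene symbols mapped to the Ensembl identifiers of the deposited count table, and all 9 were found among its 37620 identifiers. RNA had been sequenced from bone endothelial cells (BECs) that were purified by their endomucin, a surface protein of bone capillaries, and were labelled as fresh from the tibia. The labels give the inbred strain c57/Bl6 for all mice, the study's methods give C57BL/6J for wild-type experiments, and no other treatment or genotype is given. The 4 groups were 2-week females, 2-week males, 65-week females and 65-week males, with 3 libraries each. The question addressed was how the level of each gene differed between ages within a sex and between sexes within an age.

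The genes fall into a few roles. Pf4 (platelet factor 4) and Ppbp (pro-platelet basic protein) encode chemokines stored in platelet alpha granules. Gp1ba, Gp1bb and Gp9 encode subunits of the receptor by which platelets bind von Willebrand factor on injured vessel walls. Itga2b encodes the alpha subunit of the fibrinogen receptor, an integrin, and Gp6 a receptor for collagen. Treml1 encodes a receptor of the alpha granule membrane that reaches the surface of activated platelets. Tubb1 encodes the beta tubulin of the ring of microtubules that gives platelets their disc shape.

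The depth per library was 35012947 to 44569600 counts at 2 weeks and 26044743 to 34088694 counts at 65 weeks. Levels are given as CPM, counts scaled by the total of their library. In the age comparisons, edgeR's quasi-likelihood test was called at a Benjamini-Hochberg adjusted p under 0.05, and this adjustment ran over all genes tested. The labels do not say whether libraries came from separate mice, so p-values measure only the spread between these libraries, which may be technical. Sex-linked transcripts matched the label of each library, but male 65-week replicate 3 held 117 counts of Xist, a transcript of the inactive X chromosome, against 0 to 3 in the other 5 male libraries. Female 2-week replicate 3 held 25 counts of the Y-linked genes Ddx3y, Eif2s3y, Uty and Kdm5d, against 0 or 1 in the other 5 female libraries. The tests of the 9 genes and their summed level are given with and without these libraries, and the other values with them only.

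All 9 genes were lower at 65 weeks than at 2 weeks in both sexes. Their log2 changes ran from -3.46 to -2.27 in females, with a median of -3.00, and from -3.87 to -2.60 in males, with a median of -3.57. The median over all genes tested was 0.01 in each sex. All 9 members were called in females (adjusted p from 1.85e-06 to 9.15e-05, edgeR), where 29.5% of 15120 genes tested were called lower. They were also all called in males (adjusted p from 0.000135 to 0.0038, edgeR), where 28.5% of 14959 genes were called lower. In each sex the 65-week libraries lay below all 2-week libraries for each of the 9 genes, a separation in this direction that held for 41.6% of all genes tested in females and 39.4% in males. Larger falls than that of a given member were found in 5.19% to 10.2% of the genes tested in females and in 4.71% to 9.70% in males. In bulk libraries fewer cells of a type and less RNA per cell cannot be told apart.

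**Figure D1:**
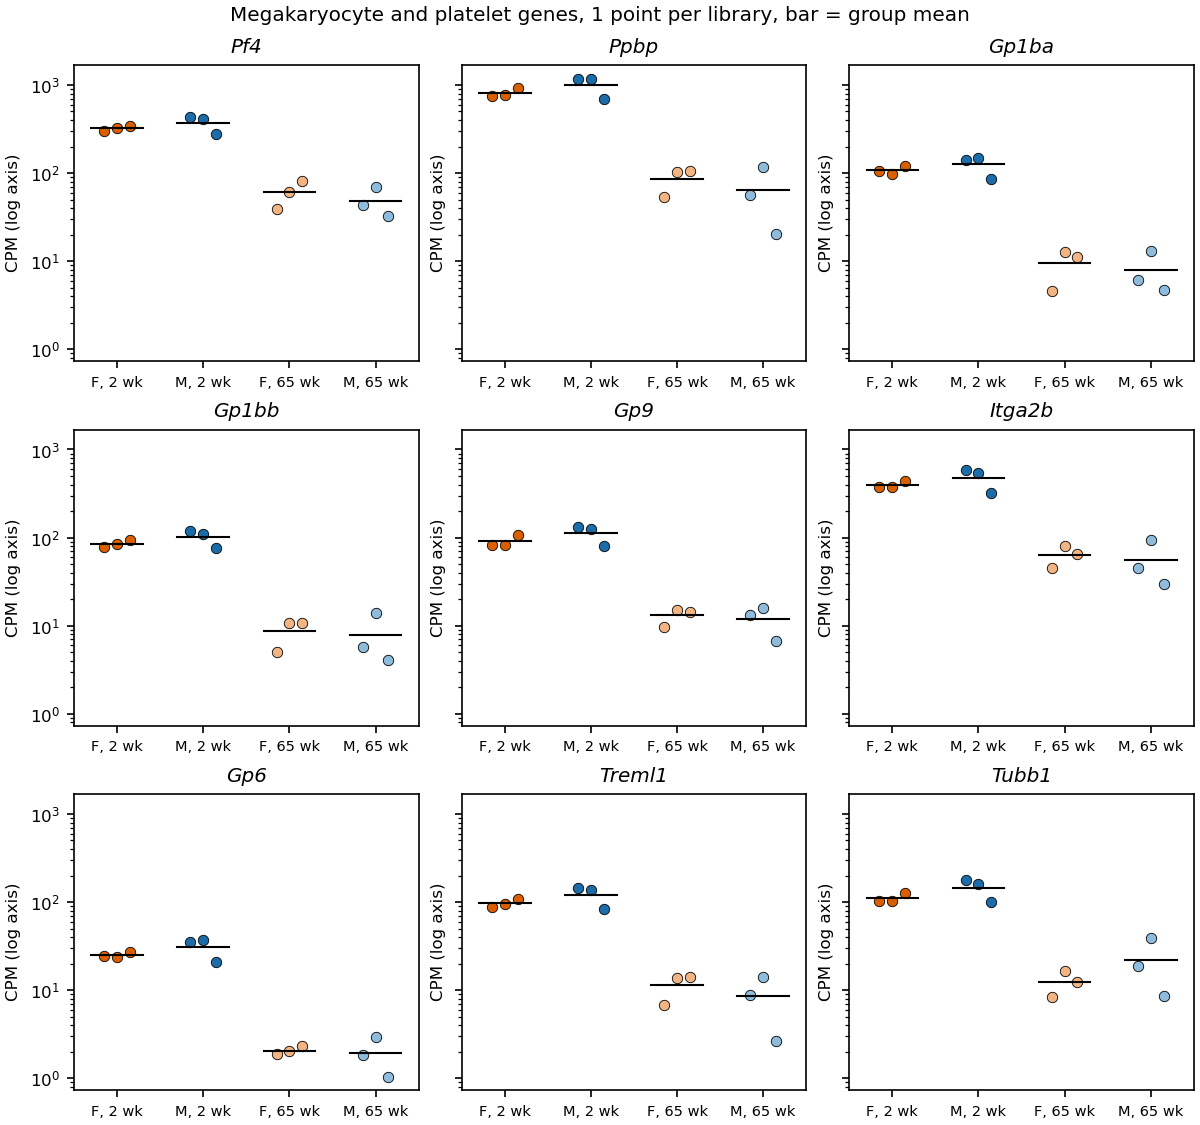
Level of each of the 9 genes in every library, in CPM on a log axis shared by all panels. Points are single libraries, bars are group means (n = 3), orange is female, blue is male, dark is 2 weeks and pale is 65 weeks. In every panel all 6 pale points sit below all 6 dark points, and the lowest dark point of the males is replicate 3.

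The granule chemokine Ppbp (ENSMUSG00000029372, GRCm39 chromosome 5, 90916371 to 90917930, + strand) had the highest level of the 9 genes in 11 of the 12 libraries. It was measured at 748, 762 and 914 CPM in young (2-week) female libraries and at 53.3, 102 and 104 CPM in the 65-week female libraries. In males the values were 1179, 1157 and 684 CPM at 2 weeks and 57.0, 117.5 and 20.4 CPM at 65 weeks. The 2 ages were far apart, with the lowest 2-week library 7.18 times the highest 65-week library in females and 5.82 times in males, while male 65-week replicate 3 stood lowest of all. The log2 change was -3.09 ± 0.26 (SE, adjusted p = 2.91e-05) in females and -3.82 ± 0.62 (adjusted p = 0.00137) in males.

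Pf4 (ENSMUSG00000029373, GRCm39 chromosome 5, 90918479 to 90922110, + strand) starts 548 bases downstream of Ppbp. Its female libraries held 299, 324 and 339 CPM at 2 weeks and 39, 61.5 and 80.6 CPM at 65 weeks. Its male libraries held 427, 416 and 274 CPM at 2 weeks and 43.1, 68.8 and 32.3 CPM at 65 weeks. This was the smallest fall of the 9 in females, at -2.27 ± 0.24 on the log2 scale (SE, adjusted p = 9.15e-05), and in males the change was -2.83 ± 0.32 (adjusted p = 0.000211). Male 65-week replicate 3, in which Ppbp was lowest, was the only library in which Pf4 exceeded Ppbp.

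The receptor for von Willebrand factor was measured through 3 of its subunits. Gp1ba (ENSMUSG00000050675, GRCm39 chromosome 11, 70529948 to 70532862, + strand), which carries the binding site, was at 107, 97.4 and 121 CPM in females at 2 weeks and at 4.61, 12.7 and 11.1 CPM at 65 weeks. The male libraries held 142, 147 and 86.4 CPM of Gp1ba at 2 weeks and 6.08, 12.9 and 4.65 CPM at 65 weeks. Its log2 change was -3.38 ± 0.33 (SE, adjusted p = 6.55e-05) in females and -3.87 ± 0.42 (adjusted p = 0.000163) in males, close to that of the collagen receptor below in both sexes.

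Gp9 (ENSMUSG00000030054, GRCm39 chromosome 6, 87755047 to 87756750, + strand), the small subunit needed for the complex to reach the surface, was at 83.1, 82.8 and 107 CPM in females at 2 weeks and at 9.57, 15.1 and 14.4 CPM at 65 weeks. In males Gp9 was at 130, 125 and 81.0 CPM and then at 13.1, 15.9 and 6.64 CPM. The libraries of the 2 ages were apart in each sex, and the log2 change was -2.67 ± 0.20 (SE, adjusted p = 1.67e-05) in females and -3.11 ± 0.35 (adjusted p = 0.000214) in males.

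Gp1bb (ENSMUSG00000050761, GRCm39 chromosome 16, 18439067 to 18441153, - strand), the subunit linked to the product of Gp1ba by disulphide bonds, is less certain. All 2087 of its exon bases are also exon bases of Septin5 on the same strand, and how the counting split such reads is not stated. Septin5 itself was counted at 512 to 1366 reads per library. Gp1bb was listed at 79.0, 83.6 and 92.5 CPM in females at 2 weeks and at 4.99, 10.6 and 10.6 CPM at 65 weeks. Male libraries held 118, 110 and 76.9 CPM, then 5.71, 13.8 and 4.03 CPM. Ages did not overlap in either sex, and the log2 change was -3.14 ± 0.26 (SE, adjusted p = 2.97e-05) in females and -3.57 ± 0.45 (adjusted p = 0.000399) in males.

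Itga2b (ENSMUSG00000034664, GRCm39 chromosome 11, 102341397 to 102360955, - strand) was the integrin of the set. Female libraries held 372, 380 and 438 CPM at 2 weeks and 44.8, 80.1 and 64.6 CPM at 65 weeks. The male values were 579, 535 and 324 CPM, then 45.5, 93.1 and 29.6 CPM. The 65-week males spread over a wider range than the 65-week females, and the log2 change was -2.51 ± 0.21 (SE, adjusted p = 2.79e-05) in females and -2.97 ± 0.45 (adjusted p = 0.000983) in males. Of its exon bases 10.3% are shared with Gm74331, a noncoding transcript of the opposite strand, and whether the counting used strand is not stated.

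Gp6 (ENSMUSG00000078810, GRCm39 chromosome 7, 4366964 to 4400743, - strand), the collagen receptor, was the member with the lowest level. It was at 24.1, 23.5 and 26.8 CPM in females at 2 weeks and at 1.86, 2.02 and 2.29 CPM at 65 weeks. Its male libraries held 35.3, 37.0 and 20.9 CPM at 2 weeks and 1.83, 2.96 and 1.04 CPM at 65 weeks, the last from 27 counts. The 65-week females agreed closely with each other, and the log2 change had the smallest error of the set, -3.46 ± 0.14 (SE, adjusted p = 1.85e-06), in females. In males it was -3.87 ± 0.40 (adjusted p = 0.000135).

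Treml1 (ENSMUSG00000023993, GRCm39 chromosome 17, 48666918 to 48674208, + strand), the receptor of the granule membrane, was at 87.9, 95 and 109 CPM in females at 2 weeks and at 6.68, 13.8 and 14.2 CPM at 65 weeks. In males the libraries held 143, 138 and 83.7 CPM of Treml1 at 2 weeks and 8.67, 14.2 and 2.65 CPM at 65 weeks. As for Ppbp, male 65-week replicate 3 stood below the other 5 libraries of that age. The log2 change was -2.94 ± 0.27 (SE, adjusted p = 4.46e-05) in females and -3.70 ± 0.55 (adjusted p = 0.000899) in males.

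Tubb1 (ENSMUSG00000016255, GRCm39 chromosome 2, 174292488 to 174299675, + strand), the tubulin, was at 102, 103 and 125 CPM in females at 2 weeks and at 8.30, 16.6 and 12.5 CPM at 65 weeks. Its male libraries held 176, 161 and 100.4 CPM at 2 weeks and 18.5, 38.7 and 8.49 CPM at 65 weeks. Male 65-week replicates 1 and 2 lay above all 65-week female libraries, replicate 3 was within their range, and all were below the 2-week males. Tubb1 was the only member that fell by less in males, at -2.60 ± 0.52 on the log2 scale (SE, adjusted p = 0.0038), than in females, at -3.00 ± 0.24 (adjusted p = 2.40e-05), a difference that did not pass the test given below.

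Without male 65-week replicate 3, all 9 genes were still called in males, with log2 changes from -3.61 to -2.24 and a median of -3.27. In that fit 62% of 15437 genes tested were called in either direction. Without female 2-week replicate 3, all 9 were called in females, with changes from -3.46 to -2.29 and a median of -2.96. There 56.5% of 15477 genes tested were called in either direction.

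**Figure D2:**
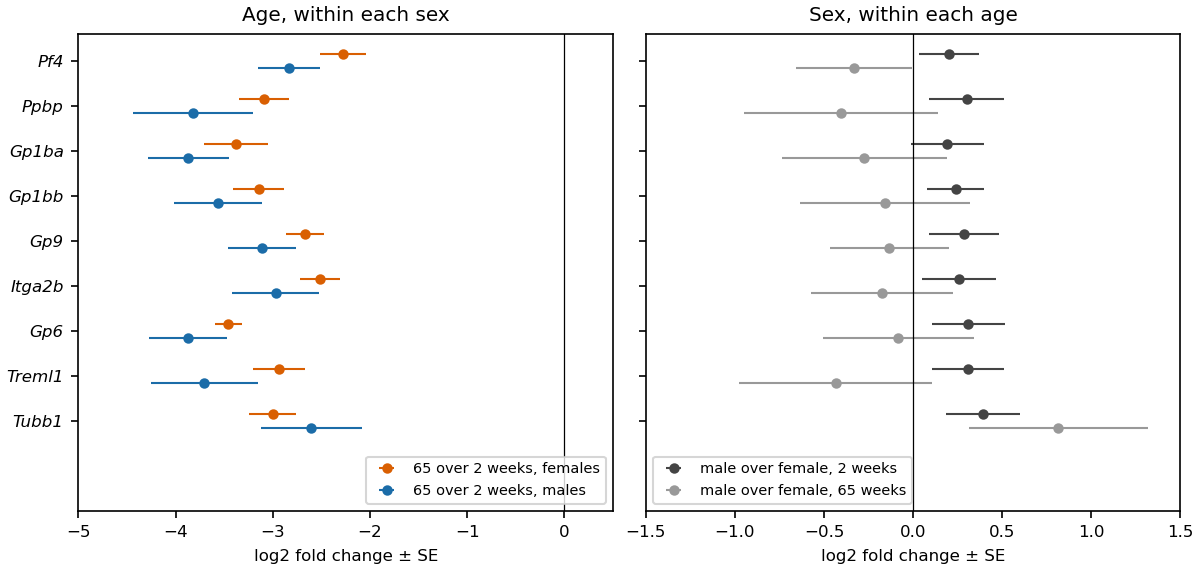
Log2 fold changes of the 9 genes with their standard errors (bars) from edgeR, for 65 over 2 weeks in females and males (left) and for male over female at 2 and 65 weeks (right, on its own axis). All 18 age changes lie between -3.87 and -2.27, and the sex changes lie between -0.43 and 0.82.

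Summed over the 9 genes, the level at 2 weeks was 1901, 1950 and 2272 CPM in females (mean 2041 ± 202 SD, n = 3) and 2930, 2826 and 1731 CPM in males (2496 ± 664 SD, n = 3). At 65 weeks it was 173, 314 and 314 CPM in females (267 ± 81.5 SD, n = 3) and 199.5, 378 and 110 CPM in males (229 ± 136 SD, n = 3). The 2-week mean was 7.64 times the 65-week mean in females and 10.9 times in males. Without female 2-week replicate 3 the former was 7.21 times, and without male 65-week replicate 3 the latter was 8.64 times. Libraries kept nearly the same order from gene to gene. At 2 weeks male replicate 3 was lowest of the 6 libraries for all 9 genes, female replicate 3 was in place 3 for all 9, and male replicates 1 and 2 were the top 2 for all 9. At 65 weeks male replicate 2 was highest for 8 of the 9 genes, all but Pf4, and male replicate 3 was lowest for 7.

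The make-up of this sum was close to constant at 2 weeks and more variable at 65 weeks. Ppbp made up 39.1% to 40.9% of it in the 6 libraries at 2 weeks and 18.6% to 33.1% at 65 weeks. The share of Pf4 was 14.6% to 16.6% at 2 weeks and 18.2% to 29.4% at 65 weeks. The ratio of Ppbp to Pf4 was 2.36 to 2.78 at 2 weeks and 0.632 to 1.71 at 65 weeks, so the levels of the 2 chemokines lay closer to each other at 65 weeks. Itga2b held 18.7% to 19.8% at 2 weeks and 20.6% to 26.9% at 65 weeks. Gp6 held 1.18% to 1.31% and then 0.645% to 1.07%. For each of these 4 genes the libraries of the 2 ages did not overlap in share, and the shares of Gp1ba, Gp1bb and Treml1 were lower in every 65-week library than in every 2-week library. Tubb1 behaved otherwise, with 5.26% to 6.0% at 2 weeks, 3.97% to 5.28% in 65-week females and 7.73% to 10.3% in 65-week males. The shares are not independent of each other, since they add up to the whole, and were not tested.

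**Figure D3:**
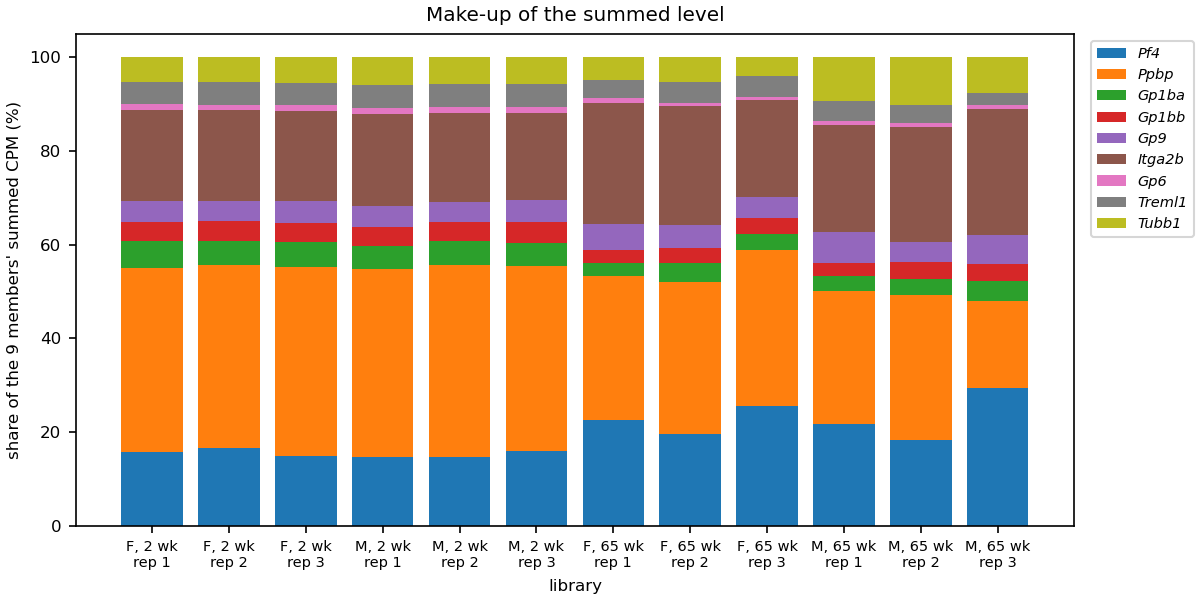
Share of each gene in the summed CPM of the 9 genes, in percent, with 1 bar per library. The 6 bars at 2 weeks look alike, with Ppbp at 39.1% to 40.9%, whereas at 65 weeks the shares of Ppbp are smaller, those of Pf4 larger, and the Tubb1 share is larger in males than in females.

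Levels of different genes were compared per kilobase of exon sequence (all exons of a gene in GENCODE M39). In 2-week females Ppbp was first at 622 ± 70.8 CPM per kilobase (SD, n = 3), followed by Pf4 at 130 ± 8.22, Gp9 at 103 ± 15.8, Tubb1 at 78.1 ± 9.50 and Treml1 at 68.0 ± 7.52. Below them were Itga2b at 48.4 ± 4.39, Gp1bb at 40.8 ± 3.29, Gp1ba at 39.9 ± 4.33 and Gp6 at 4.20 ± 0.299 CPM per kilobase. In this order the libraries of Tubb1 and Treml1 overlapped, as did those of Gp1bb and Gp1ba, and the other neighbours were apart. The order was the same in 2-week males and 65-week females. In 65-week males Tubb1 was in place 3, at 15.6 ± 11 CPM per kilobase, above Gp9 at 13.4 ± 5.36 (SD, n = 3), and their libraries overlapped, and Itga2b was above Treml1 there. When the length of the canonical transcript was used, an alternative chosen after seeing the data, Ppbp and Pf4 stayed first and second and Gp1ba and Gp6 last in all 4 groups, while Gp1bb, whose length drops from 2087 to 1086 bases, moved from place 7 to place 4 in 2-week females, at 78.3 ± 6.32 CPM per kilobase.

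The sexes were compared within each age. At 2 weeks all 9 genes had a higher mean in males, with log2 differences from 0.19 to 0.39, but none passed the test (adjusted p from 0.335 to 0.601, edgeR), and male replicate 3 was lower than all 3 female libraries for each of the 9 genes. Without female 2-week replicate 3 the differences ran from 0.25 to 0.51 and none was called (adjusted p from 0.523 to 0.668, edgeR). Of all 15081 genes tested, 0.0332% were called between the sexes at that age. At 65 weeks 8 of the 9 genes had a lower mean in males, with log2 differences from -0.43 to -0.08, and Tubb1 a higher one at 0.82 ± 0.50 (SE). None was called (adjusted p from 0.65 to 0.974, edgeR), nor were more than 0.042% of the 14287 genes tested. No member had an unadjusted p under 0.05 in either comparison. Without male 65-week replicate 3 the difference in Tubb1 was 1.21 (adjusted p = 0.0822, edgeR) and the 9 differences ran from -0.10 to 1.21. No member was called in that fit, in which 5.65% of 14700 genes were. Without male 65-week replicate 2 the difference in Tubb1 was instead 0.12 (adjusted p = 0.956, edgeR). Of the 8 negative differences 6 turned positive without male 65-week replicate 3.

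Whether the age change itself differed between sexes was asked with an interaction term in a fit of the 12 libraries. The estimate, male minus female change, ran from -0.77 for Treml1 to 0.40 for Tubb1 on the log2 scale, with 8 of the 9 negative. None passed the test (adjusted p from 0.619 to 0.817, edgeR) or had an unadjusted p under 0.05, and 0.00635% of the 15747 genes tested were called. The standard errors of these estimates were 0.41 to 0.67. Without male 65-week replicate 3 no member was called, in a fit that called 4.66% of 16089 genes. Nor was any member called without female 2-week replicate 3, where 0.0124% of 16097 genes were.

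Sequence before the transcription start was available for all 9 genes from RefSeq (GRCm38.p6, 250 bases upstream on the strand of the gene). Exons annotated in GENCODE M39 cover part of these windows, with 187 bases of Itga2b, 37 of Pf4, 26 of Treml1, 6 of Ppbp and 5 of Gp9 lying in exons of the gene itself and all 250 of Gp1bb in exons of Septin5, so a match before the RefSeq start can lie in transcribed sequence. For Tubb1, 0 GENCODE M39 transcripts held the bases checked just after the RefSeq start, against 1 to 11 for each other member. The place of the Tubb1 window is therefore less certain. The sequence is shown for the most abundant member and for the pair of receptor subunits that hold a match at the same distance from the start, and the capitals mark motif matches.

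Ppbp, chr5:90768268-90768517, + strand, capitals mark TATAAA at positions -30 to -25 and -8 to -3 before the start:
Ppbp: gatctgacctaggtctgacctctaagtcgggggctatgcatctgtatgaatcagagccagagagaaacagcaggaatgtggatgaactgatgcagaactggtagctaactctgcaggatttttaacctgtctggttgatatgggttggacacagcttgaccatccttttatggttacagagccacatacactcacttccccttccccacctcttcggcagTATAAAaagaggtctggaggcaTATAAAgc
Gp1ba, chr11:70638872-70639121, + strand, capitals mark TGATAA at -104 to -99, its reverse complement at -51 to -46, the reverse complement of AGATAG at -23 to -18 and the reverse complement of AGGAAG at -16 to -11:
Gp1ba: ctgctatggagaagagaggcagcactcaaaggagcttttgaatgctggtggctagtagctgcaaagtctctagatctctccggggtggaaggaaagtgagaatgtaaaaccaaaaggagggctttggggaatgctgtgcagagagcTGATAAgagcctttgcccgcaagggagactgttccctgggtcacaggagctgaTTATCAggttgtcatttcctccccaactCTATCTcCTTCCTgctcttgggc
Gp9, chr6:87777820-87778069, + strand, capitals mark the reverse complement of TGTGGT at -171 to -166 and of AGGAAG at -16 to -11:
Gp9: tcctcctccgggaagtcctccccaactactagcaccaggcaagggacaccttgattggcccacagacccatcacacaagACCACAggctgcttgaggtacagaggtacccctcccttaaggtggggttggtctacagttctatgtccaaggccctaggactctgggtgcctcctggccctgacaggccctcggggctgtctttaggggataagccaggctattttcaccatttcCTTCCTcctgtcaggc

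GATA1, ETS proteins such as FLI1, and RUNX1 are transcription factors known from megakaryocytes. GATA letters (AGATAA or its variants TGATAA and AGATAG and also TGATAG, on both strands) were found upstream of 3 of the 9 genes, Gp1ba, Gp1bb and Gp6, and of 26.5% of 32851 RefSeq promoters of the same length. ETS letters (AGGAAG or CGGAAG, both strands) were found for 6 of the 9, Pf4, Gp9, Gp1ba, Gp1bb, Itga2b and Tubb1, and for 39.2% of promoters. The RUNX letters (TGTGGT, both strands) occurred for Gp9 only among the members, and for 14.0% of promoters. TATAAA occurred for Ppbp only, and for 12.4%. No matches overlapped each other in the windows shown, and Treml1 held none of these letters. A match is a description of the letters, and binding was not measured.

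A wider list of 53 platelet genes was examined in the same fits. In females 36 were called lower, 7 higher and 10 were not called, against 30.2% of all genes called higher and the share called lower given above. In males 34 were lower, 5 higher and 14 not called, where 27% of all genes were called higher. The median log2 change of these 53 genes was -1.15 in females and -1.16 in males. No gene was called in opposite directions in the 2 sexes, and 34 were called lower in both. Some genes called lower did not rank the libraries as the members did. In 2-week females Pear1, Mylk, Cavin2, Selp, Itga2, Ptgs1, Mmrn1 and Vwf were lowest in replicate 3, as was the endothelial sum given below. The members, and other listed genes such as Gp5, were highest there. In 2-week males Pear1, Mylk and Selp were lowest in replicate 2, like that sum. Cavin2, Itga2, Ptgs1, Mmrn1 and Vwf were lowest in replicate 3 there, like the members. These genes were named here after their values were seen. The part of endothelial transcripts in these falls was not tested.

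Of 15 surface receptors 14 were called lower in each sex, with median log2 changes of -2.41 in females and -3.24 in males. Itga2, the alpha subunit of a collagen-binding integrin, changed from 32.7 ± 4.62 to 2.62 ± 0.763 CPM in females (SD, n = 3) and by -3.49 ± 0.21 on the log2 scale (SE, adjusted p = 6.81e-06, edgeR). In males it changed by -3.98 ± 0.35 (adjusted p = 5.33e-05). Mpig6b, an inhibitory receptor of megakaryocytes, changed by -3.46 ± 0.25 in females. F2rl2, a thrombin-activated receptor, went from 104 ± 25.8 to 4.98 ± 2.32 CPM in males (SD, n = 3), a log2 change of -4.26 ± 0.37 (SE, adjusted p = 5.44e-05, edgeR), and the granule membrane protein Selp, which endothelial cells also make, by -3.81 ± 0.13. The exception, named after its values were seen, was the ADP receptor P2ry12, at 10.3 ± 0.156 CPM at 2 weeks and 9.69 ± 1.54 CPM at 65 weeks in females, and at 15.4 ± 3.57 and 13.4 ± 2.77 CPM in males (SD, n = 3 each).

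Of 11 genes for granule contents and granule formation, 8 were lower and 1 higher in females, and 6 lower and 1 higher in males. The gene that rose was Nbeal2, needed to form alpha granules, from 57.7 ± 1.75 to 84.9 ± 12.2 CPM in females (SD, n = 3, log2 change 0.69 ± 0.11 SE, adjusted p = 0.00101, edgeR) and from 43.7 ± 6.11 to 92.3 ± 2.82 CPM in males (log2 change 1.19 ± 0.12, adjusted p = 0.000123). Of 10 signalling genes 9 were lower in each sex, and the remaining gene, Plek, named after its values were seen, was not called in either. Of 9 cytoskeleton genes 5 were lower and 2 higher in each sex. Myl9, a myosin light chain, had the largest fall in females, from 135 ± 14.5 to 8.99 ± 2.81 CPM (SD, n = 3, log2 change -3.77 ± 0.23 SE, adjusted p = 7.20e-06, edgeR), whereas Diaph1, a formin that assembles actin filaments, rose by 0.83 ± 0.09 on the log2 scale (adjusted p = 0.000128).

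Of 8 transcription factors of the lineage, none was lower in either sex at an adjusted or unadjusted p under 0.05 (edgeR), while 4 were called higher in females and 2 in males, where 30.2% and 27% of all genes were. With RLE or upper quartile scaling 3 were called higher in females, and with library totals in place of TMM 3 were called higher and 2 lower in females, the latter Gfi1b and Runx1, named after their values were seen. Zfpm1, the cofactor of GATA1, rose from 308 ± 67.3 to 413 ± 19.8 CPM in females (SD, n = 3, log2 change 0.56 ± 0.16 SE, adjusted p = 0.0169, edgeR) and from 233 ± 44.1 to 425 ± 122 CPM in males (0.99 ± 0.23, adjusted p = 0.0085). Nfe2, a factor needed for platelet release, rose by 0.84 ± 0.20 in males (adjusted p = 0.00825). Gata1, which erythroid cells and mast cells also transcribe, was not called in either sex, at 175 ± 39.4 CPM at 2 weeks and 145 ± 3.00 CPM at 65 weeks in females, and at 143 ± 20.2 and 159 ± 47.4 CPM in males (SD, n = 3 each). Which cells in these bulk libraries held the transcripts of the 8 factors was not tested. Erythroid transcripts were present in every library, as given below. Between the sexes none of the 53 genes was called by edgeR at either age, while 7 (13.2%) at 2 weeks and 10 (18.9%) at 65 weeks had an unadjusted p under 0.05, against 17.8% and 10.4% of all genes tested.

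**Figure D4:**
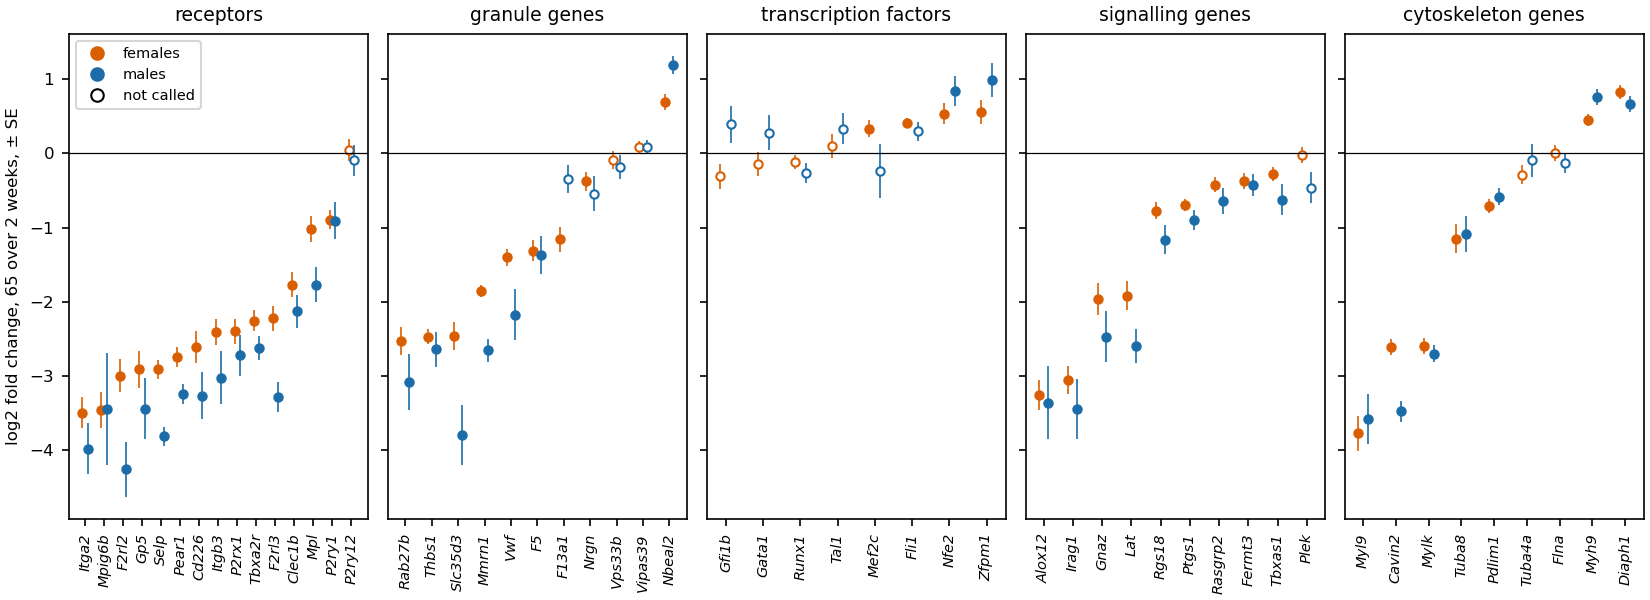
Log2 fold change of 53 further platelet genes, 65 over 2 weeks, with standard errors, in females (orange) and males (blue), grouped by role. Filled points were called at an adjusted p under 0.05 and open points were not. Receptors lie mostly below -2, except P2ry12 near 0, whereas the lowest transcription factor lies at -0.31.

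The genes whose pattern over the 12 libraries was most like the mean pattern of the 9 members were ranked by the root mean square of the log2 differences between centred profiles. Among 11559 protein-coding genes the closest were Gp5 (0.081), Alox12 (0.155), Pde3a (0.167), Rbpms2 (0.183), Neurl1a (0.226), Irag1 (0.238), Rab27b (0.245), Pde5a (0.259), Gucy1b1 (0.279) and Adcy5 (0.286). Each of these was closer to the mean than the most distant member was, at 0.367, and the median over all genes compared was 1.71. The closest, Gp5, encodes a further subunit of the receptor for von Willebrand factor, and was at 139 ± 6.60, 172 ± 45.1, 16.8 ± 6.08 and 14.5 ± 7.61 CPM in 2-week females, 2-week males, 65-week females and 65-week males (SD, n = 3 each). Of the 10 genes 4 were on the list of 53.

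Lists of markers of other cells were summed for comparison, and their sums were not tested. The labelled cell type was checked through 16 endothelial genes, whose sum at 2 weeks was 3565 to 6190 CPM in females and 5150 to 6522 CPM in males. At 65 weeks this sum was 271 to 349 CPM in females and 236 to 315 CPM in males. The 65-week libraries were thus low in endothelial transcripts. Endomucin (Emcn), on which the cells were purified, was at 115 to 227 CPM over the 6 libraries at 2 weeks and 2.80 to 6.98 CPM over those at 65 weeks. Cdh5 and Kdr, other endothelial genes, were at 431 to 790 and 344 to 698 CPM at 2 weeks and at 8.92 to 14.3 and 11.3 to 14.6 CPM at 65 weeks. The 2-week mean of the endothelial sum was 16.0 times the 65-week mean in females and 22.1 times in males, a larger ratio than that of the 9 members in each sex.

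Other blood cells were represented in every library. The sum of 12 erythroid genes was 31269 to 59001 CPM over all 12 libraries, above the endothelial sum in each, and its 65-week mean was 1.02 times the 2-week mean in females and 1.10 times in males. Hbb-bt, a beta globin, ranged from 3052 to 5180 CPM. The sum of 10 neutrophil genes had means of 5510 CPM at 2 weeks and 13524 CPM at 65 weeks in females, and of 3993 and 22456 CPM in males. The sum of 8 stem and progenitor genes, Gata2 among them at 9.41 to 26.3 CPM, was 217 to 380 CPM at 2 weeks and 99.8 to 203 CPM at 65 weeks. Its difference between the ages was that of Cd34, which endothelial cells also express, and without Cd34 the other 7 genes summed to means of 111 CPM at 2 weeks and 153 CPM at 65 weeks in females, and of 120 and 122 CPM in males. Mast cell and basophil genes summed to 23.4 to 104 CPM, with Cpa3 at 3.41 to 10.2 CPM, and no gene of these 5 lists was at 0 in all libraries of a group. The part of these changes in the levels of the 9 members was not tested.

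The members and the endothelial genes did not rank all libraries alike. Some were placed similarly. Male 2-week replicate 1, highest of its age for 7 of the 9 members, also had the highest endothelial sum, 6522 CPM. Female 65-week replicate 2, in place 2 or 3 of its age for every member, had the highest endothelial sum there, 349 CPM. Others were not. Male 2-week replicate 3, lowest for every member, had the second highest endothelial sum of that age, 6252 CPM. Male 65-week replicate 2, highest for 8 of the 9 members, had the lowest endothelial sum, 236 CPM, and replicate 3, lowest for 7 members, the second highest, 315 CPM.

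**Figure D5:**
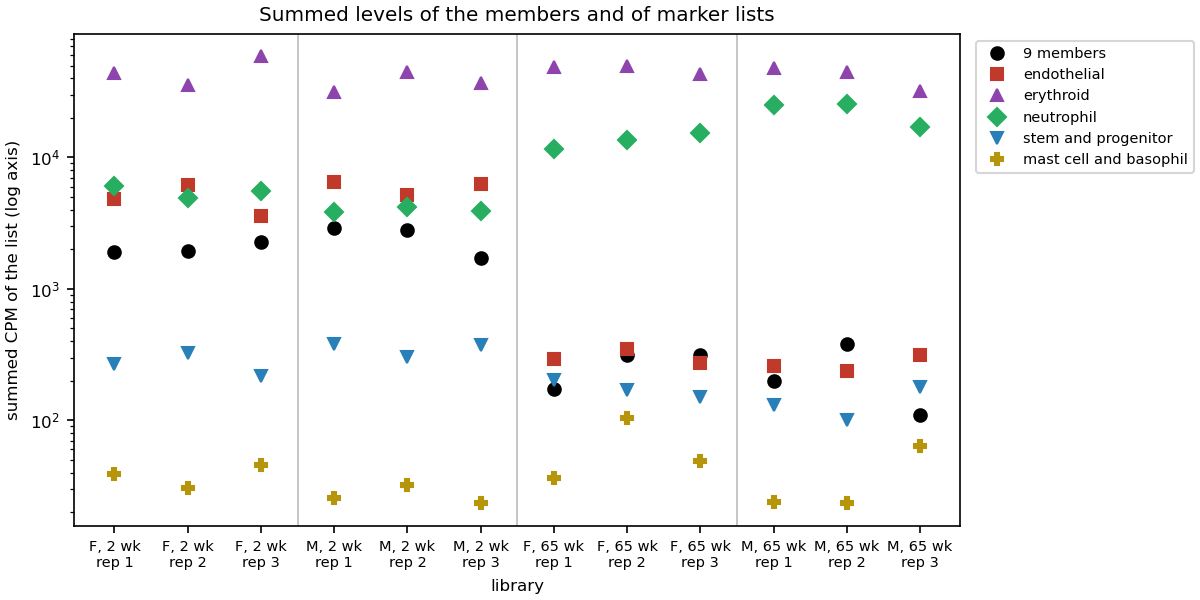
Summed CPM, on a log axis, of the 9 members (black circles) and of 5 marker lists in each of the 12 libraries. Both the members and the endothelial genes are lower in all 65-week libraries, from 110 to 378 CPM and from 236 to 349 CPM, while the erythroid genes stay between 31269 and 59001 CPM and the neutrophil genes are higher.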

How the data were processed

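RNA was sequenced from BECs with 100 nt paired reads, and per the study's methods samples were chosen by RNA quality. The deposited values are counts per gene, not normalised. The submitters' processing notes name TopHat2, HTSeq and mm9, whereas the methods describe STAR, featureCounts and GRCm39, and which made this table is not settled. The kit was for total RNA, the molecule label names polyadenylated RNA. Of the identifiers 31052 of 37620 were found in GENCODE M39 (GRCm39), the source of names, lengths and coordinates.

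CPM used library totals. Tests used edgeR 4.0.16 (R 4.3.3) with filterByExpr at a minimum count of 10, TMM scaling and a threshold of 0.05, on the 6 libraries of each comparison and on all 12 for the interaction. Standard errors are the change divided by the root of F. The script was tested on simulated data. Replicates differed by more than sampling noise (chi-square per degree of freedom 26.8 to 103). Of 54 further genes listed, Bin2 had no match. The members and lists were chosen with earlier results of these data known. Besides members, the text names the 3 largest rises and falls among called further genes per sex, the 10 closest patterns, and defining markers. Some further genes were also named after their values were seen, for their library ranks, for calls under an alternative or as exceptions. Alternatives were DESeq2 1.42.0, other scalings, filters, thresholds and dispersions, thinning to 26044743 counts, 1 model, a replicate block and leaving out libraries.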

Additional observations from a re-analysis of the deposited data

How the results depend on the processing

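All 9 members were called in both age comparisons, and none in the sex comparisons or the interaction, under every alternative run. At the main threshold these alternatives called 41.3% to 62.4% of all genes by age in females and 38.7% to 62% in males. Between the sexes they called 0.0269% to 3.21% at 2 weeks and 0.034% to 5.65% at 65 weeks. For the interaction the share was 0% to 4.66%. The age changes of the 9 members on the log2 scale stayed between -3.66 and -2.04 in females and between -4.57 and -2.24 in males. The highest adjusted p of the members was 0.00072 in females and 0.0196 in males. Library totals without TMM moved the median of all genes to -0.13 in females and -0.11 in males. Replicate numbers did not pair the libraries (correlation of deviations from -0.344 to 0.141 over 12 pairs, 1 above 0.1). With a replicate block 9 members and 42 further genes were called in females, where 54.7% of all genes were. In males 9 and 39 were called, where 50.8% of all genes were. Without each library in turn, further genes called ranged from 39 to 46 in females, where 48.1% to 56.6% of all genes were called. In males they ranged from 35 to 43, against 42.7% to 62% of all genes. Between the sexes at 65 weeks the range was 0 to 6. The 6 were called without male replicate 3 (Mef2c, Runx1, Selp, Gfi1b, Cavin2 and Mmrn1), a fit in which 5.65% of 14700 genes were called. DESeq2 called 3 further genes between the sexes at 2 weeks (Myh9, Runx1, Nbeal2), where it called 3.21% of all genes. At 65 weeks it called 3 (Selp, Cavin2, Mmrn1), against 2.79% of all genes. The cause was not tested. The sum's fold over age ranged from 6.50 to 8.38 in females and from 8.64 to 16.1 in males. Uncalled differences between the sexes at 65 weeks changed sign when 1 library was left out, over ranges of log2 differences for Gp1ba (-0.83 to 0.0050), Gp1bb (-0.85 to 0.16), Itga2b (-0.75 to 0.14), Ppbp (-1.14 to 0.022), Gp9 (-0.40 to 0.17) and Gp6 (-0.52 to 0.23), as did the interaction for Tubb1 (-0.31 to 0.81). The longer or shorter gene length moved 13 of 36 levels per kilobase by more than 1 SD. Levels under about 0.1 CPM, a count of 3, could not be measured, which no member approached.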
